A study of Mus musculus with 4 samples.

Results

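The cells described here are conventional CD4 T cells in which a Foxp3 transcript was counted: 108 of the 11761 conventional CD4 cells of the series, and of 36140 cells in all. Irradiated BALB/c mice (900 cGy) had received T cell-depleted C57BL/6 bone marrow carrying both CD45.1 and CD45.2, together with regulatory T (Treg) cells sorted as CD4+ Foxp3-GFP+ CD25hi from CD45.2+ C57BL/6 spleens. After 2 days they were given CD4+ and CD8+ T cells from wild-type CD45.1+ C57BL/6 mice from which Treg cells had been removed (conventional cells), which brings on acute graft-versus-host disease. The transferred Treg cells were CD226+/+ TIGIT+/+ (wild type), CD226-/- TIGIT+/+ (CD226-null), CD226+/+ TIGIT-/- (TIGIT-null) or CD226-/- TIGIT-/- (double-null), while the conventional cells were wild type throughout. Living donor T cells (H-2Kb+ TCRb+) were sorted from the spleen 8 days after disease induction and sequenced as 1 library per Treg genotype, each a pool of 3. No genotype has a second library, so the 4 libraries serve here as 4 samples of the same wild-type conventional cells, and genotypes are not tested against each other. The labels describe the Foxp3-GFP reporter for the Treg donors alone, and here a Foxp3 transcript is the sole measure of Foxp3 in a conventional cell.

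Members were chosen by 3 measured values: the antibody counts for the CD45 forms, the Cd4 and Cd8 transcripts, and Foxp3 itself. Barcodes needed 500 or more genes, with mitochondrial transcripts making up no more than 10%. Conventional origin was read from protein: the log2 of the CD45.1 count over the CD45.2 count (each plus 1) had to exceed 2.2. A cell then had to hold more Cd4 than Cd8a plus Cd8b1 transcripts, counted as unique molecular identifiers (UMIs), and at least 1 Foxp3 UMI. The libraries with wild-type, CD226-null, TIGIT-null and double-null Treg cells gave 42, 26, 21 and 19 such cells. They were compared with the 11653 conventional CD4 cells that have no Foxp3 UMI and with 346 Foxp3-positive cells of Treg origin, whose ratio lies below -0.6.

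Foxp3 is the transcription factor that defines Treg cells, which restrain other T cells. Most are made in the thymus, and conventional CD4 cells can acquire Foxp3 outside it, usually under TGF-beta and IL-2. Foxp3 acts with a wider set of genes: high-affinity IL-2 receptor chains, the inhibitory receptor CTLA-4, costimulatory receptors of the TNF receptor family, and the Ikaros family factors Helios (Ikzf2) and Eos (Ikzf4). In graft-versus-host disease donor Treg cells are known to limit the attack of donor conventional T cells on the host.

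Most members held a single Foxp3 UMI. There were 63 such cells, 27 with 2, 13 with 3, 4 with 4 and 1 with 6. Helios, which the rule did not use, was detected in 68 of 108 members (63.0%, exact 95% interval 53.1 to 72.1%) and in 19.4% of conventional CD4 cells without Foxp3. Il2ra, the alpha chain of the IL-2 receptor, was found in 74 of 108 members (68.5%) against 32.7%. After every cell was thinned to 2000 UMIs, to equalise depth, Ikzf2 was found in 37.4% of 107 members and 6.56% of the others, and Il2ra in 37.4% against 11.1%. Both transcripts were thus more frequent in members at the same depth.

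The donor origin of the members was checked on transcripts that the rule did not use. The Treg donors were female by transcript and the conventional donors male: Xist was found in 90.2% of the Foxp3-positive Treg-origin cells, whereas Y-linked transcripts were found in 3.18% of them. Among members 4 of 108 had an Xist UMI (3.7%) and 67.6% had a Y-linked UMI. In conventional CD4 cells without Foxp3 the shares were 0.412% and 63.6%. The 4 members with Xist also had a Y-linked UMI, and all 4 lay at antibody ratios between 2.2 and 2.7, the lowest range admitted. No member above 2.7 had one. Cd8a or Cd8b1 UMIs occurred in 10 members (9.26%) against 5.23% of the cells without Foxp3. Without the cells that held an Xist UMI 139 genes were higher in members in the comparison below, and without those that held a Cd8 UMI 132, against 136 with all cells.

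Around the threshold the values changed in steps. Just outside it, at ratios from 1.7 to 2.2, 13 of 495 CD4 cells had Foxp3 (2.63%), and 6 of those 13 had Xist. Just inside, from 2.2 to 2.7, Foxp3 was found in 14 of 1784 cells (0.785%). The share was 0.722% from 2.7 to 3.2, 0.988% from 3.2 to 3.7 and 1.23% above 3.7. These shares rest on 28, 37 and 29 cells with Foxp3. Depth was not equalised between the ranges, and a trend was not tested. Of the Treg-origin cells resolved as CD4, 23.6% had Foxp3.

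Foxp3 was detected in 1.53% of conventional CD4 cells in the library with wild-type Treg cells (exact 95% interval 1.10 to 2.06%). The shares were 0.839% (0.549 to 1.23%) with CD226-null, 0.677% (0.420 to 1.03%) with TIGIT-null and 0.675% (0.407 to 1.05%) with double-null Treg cells. The interval of the wild-type library lies above those of the TIGIT-null and double-null libraries and overlaps that of the CD226-null library. These intervals cover counting error only, and with 1 library per genotype a difference between genotypes cannot be told apart from one between libraries or pools. The sample records also place the wild-type and CD226-null libraries in lane 3 and the TIGIT-null and double-null libraries in lane 4. Lane and TIGIT genotype therefore cannot be told apart either. Cells of the wild-type library were also the deepest, with a median of 9013 UMIs per conventional CD4 cell against 7040 to 8056 in the other libraries. At 2000 UMIs per cell the shares were 0.621%, 0.356%, 0.358% and 0.214%, and the interval of the wild-type library (0.362 to 0.993%) then overlapped each of the others.

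**Figure D1:**
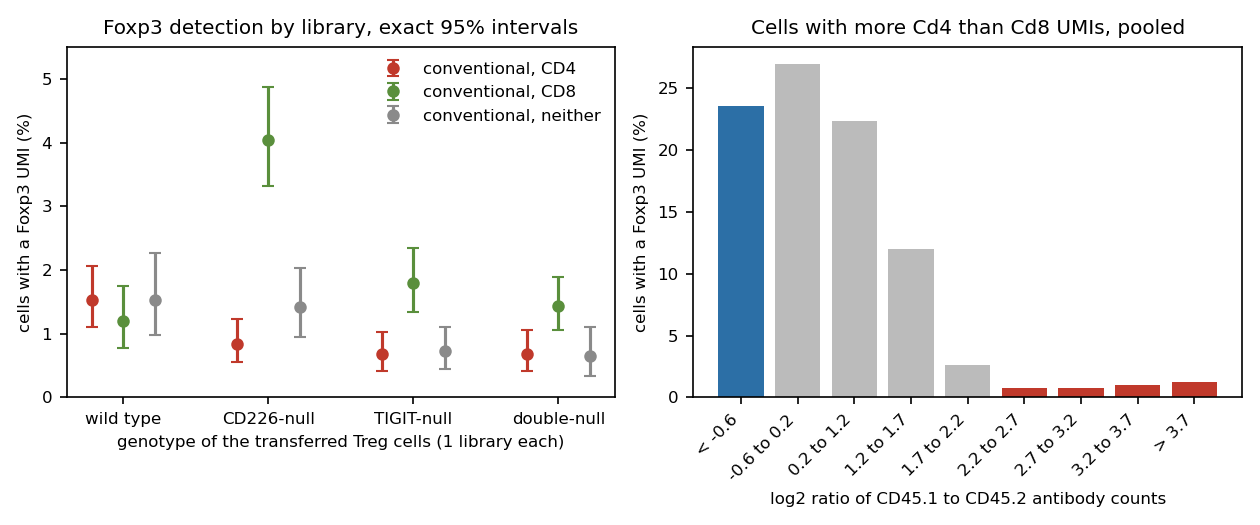
Left, percentage of conventional CD4, CD8 and unresolved cells with a Foxp3 UMI in each library, with exact 95% intervals. Right, the same percentage for all cells with more Cd4 than Cd8 UMIs, pooled over libraries, by log2 antibody ratio: blue bar, Treg-origin range; red bars, conventional range; grey bars, between them. The share falls from 12.0% at ratios of 1.2 to 1.7 to 0.785% at 2.2 to 2.7 and lies at 1.23% above 3.7.

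Conventional CD8 cells, in which Foxp3 is not normally expected, did not have a lower share than the CD4 cells. Foxp3 was detected in 231 of 11015 of them (2.10%), and in 1.19%, 4.04%, 1.79% and 1.43% of those in the 4 libraries, in the order above, at median depths of 8887 to 11901 UMIs. Thinned to 2000 UMIs their shares were 0.287%, 0.967%, 0.486% and 0.442%. In the library with wild-type Treg cells the thinned share was thus higher in CD4 cells, and in the other libraries in CD8 cells. The shares alone therefore give no level that separates expression from background transcripts of free RNA, whose part was not tested. What follows rests on the other transcripts of the same cells, which are not particular to CD4 cells. Among the Foxp3-positive conventional CD8 cells Ikzf2 was found in 61.9% and Il2ra in 81.8%. Thinned to 2000 UMIs the shares there were 17.7% for Ikzf2, below that of the members, and 37.7% for Il2ra, close to that of the members.

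The members differed from other conventional CD4 cells of the same libraries in genes of the Treg programme. Sums of UMIs per library were compared with edgeR's quasi-likelihood test, with the library as a block, Benjamini-Hochberg adjustment over all 5165 genes tested and calls at an adjusted p of at most 0.05. Of these genes, 136 (2.63%) were higher in members and 51 (0.987%) lower. Levels below are in CPM, a gene's part of the summed UMIs of its library and class on the usual scale for sequencing counts, always in the order wild-type, CD226-null, TIGIT-null and double-null library. Of the 25 measured genes of a Treg core list, 14 passed the filter of a mean of 20 CPM, and 10 of those were called higher and 0 lower, with a median log2 fold of 1.41 beside 6.1e-05 for all genes tested. As the filter averages over members too, a gene can pass it through its level in members, so this count describes the 14 and is no test of the list. The counts of all other lists below have the same limit. Socs2 and Klrg1, for example, were under 20 CPM in every library's cells without Foxp3. Over 18 other settings the list had 9 to 15 members called higher and 0 lower.

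Ctla4, the inhibitory receptor through which Treg cells compete for costimulatory ligands, had the largest fold of the called genes with the same direction in every library. It stood at 232, 393, 274 and 414 CPM in members and at 40.8, 42.5, 31.5 and 50.5 CPM in the cells without Foxp3. The groups did not overlap, as for 8.23% of all genes tested in this direction, and the difference was 7.53-fold (log2 fold 2.91, SE 0.13, adjusted p = 7.4e-24). For Ikzf2, the gene of Helios, the members' values were 254, 249, 104 and 199 CPM and the others' 39.3, 38.1, 27.3 and 39.6 CPM. The TIGIT-null library had the lowest value in both groups, and the fold was 5.62 (log2 fold 2.49, SE 0.14, adjusted p = 1.8e-20).

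Il2ra was measured at 204, 338, 227 and 516 CPM in members against 71.2, 59.6, 75.2 and 75.2 CPM. It varied more among the members' libraries than among the reference sums, and its adjusted p was 0.015 for a log2 fold of 2.07 (SE 0.26). The calls for Ctla4, Ikzf2 and Il2ra held in all 18 alternatives, in which the log2 folds ranged from 2.81 to 3.40, from 2.37 to 3.1 and from 1.85 to 2.36. On the mouse GRCm38 assembly (GENCODE M21) the 3 genes are protein coding and lie at chr1:60887000-60915832 (Ctla4), chr1:69531214-69687245 (Ikzf2) and chr2:11642807-11693193 (Il2ra), while Foxp3 lies at chrX:7573644-7595245.

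All 5 genes of the TNF receptor family that could be tested were called higher in members, and 7 further members of that list were below the filter. These calls are not separate from those of other lists. Tnfrsf4, Tnfrsf9 and Tnfrsf18 are also on the Treg core list, and Tnfrsf1b and Cd27 on the list of effector-stage Treg genes below. Tnfrsf4 encodes OX40, a costimulatory receptor of activated and regulatory CD4 cells, and reached 845, 839, 605 and 857 CPM against 272, 199.7, 245 and 278 CPM (log2 fold 1.64, SE 0.09). Tnfrsf18, which encodes GITR and starts 9552 bases beyond the end of Tnfrsf4 at chr4:156026164-156028895, was measured at 484, 527, 416 and 505 CPM against 211, 171, 178 and 197 CPM (log2 fold 1.32, SE 0.09). In neither gene did the groups overlap. Tnfrsf9 (4-1BB) and Tnfrsf1b (the second TNF receptor) had log2 folds of 1.5 and 1.56, and the fifth gene, Cd27, one of 0.72 with overlapping groups. After thinning to 2000 UMIs 3 of 6 were called, and both Tnfrsf1b and Cd27 lost their call. That for Cd27 was also lost without the library block, with at least 2 Foxp3 UMIs and without the CD226-null library, where its level in members was 241 CPM against 94.6 to 140.2 CPM in the other libraries.

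Signalling genes of the IL-2 pathway were higher as well: 7 of 13 tested were higher and 1, Bcl2, was lower. Of those higher, Il2ra, Il2rb and Socs2 are Treg core genes counted above. Socs2, a cytokine-induced inhibitor of signalling and also on the Treg core list, stood at 56.1, 77.9, 61.5 and 85.1 CPM in members and at 13.1, 8.90, 11.6 and 10.4 CPM in the others (log2 fold 2.59, SE 0.27, adjusted p = 4e-10). Socs3 and Cish, of the same family, had log2 folds of 1.25 and 0.83, and the STAT5-induced kinase gene Pim1 one of 0.95. Il2rb, the shared beta chain of the IL-2 and IL-15 receptors, differed less, at 527, 560.4, 515 and 443 CPM against 347, 331, 333 and 337 CPM (log2 fold 0.58). Socs1 (log2 fold 0.49, adjusted p = 0.043) lost its call in 9 of the alternatives.

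Not every gene linked to Treg cells differed. Nrp1, a surface receptor used as a mark of thymus-derived Treg cells, stood at 31.8, 40.8, 61.5 and 28.4 CPM in members and 41.9, 44.2, 45.6 and 44.2 CPM in the others (log2 fold -0.19, SE 0.22, adjusted p = 0.77), with overlapping groups. Its transcript did not mark the transferred Treg-origin cells either. Thinned to 2000 UMIs, it was found in 6.29% of those with Foxp3, 6.54% of members and 8.61% of conventional CD4 cells without Foxp3. Izumo1r, which encodes the folate receptor family protein FR4, was higher in each library's members (65.4, 141, 37.8 and 102 CPM against 30.0, 21.7, 34.8 and 23.4 CPM), but its adjusted p was 0.16. Il10 cannot be read from these cells, because 59.6% of its 52 UMIs in members came from 1 cell. Ikzf4 and Lrrc32 were below the filter, at 9.35 to 18.6 and 5.61 to 11.1 CPM in members against 1.66 to 2.74 and 0.07 to 0.31 CPM.

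**Figure D2:**
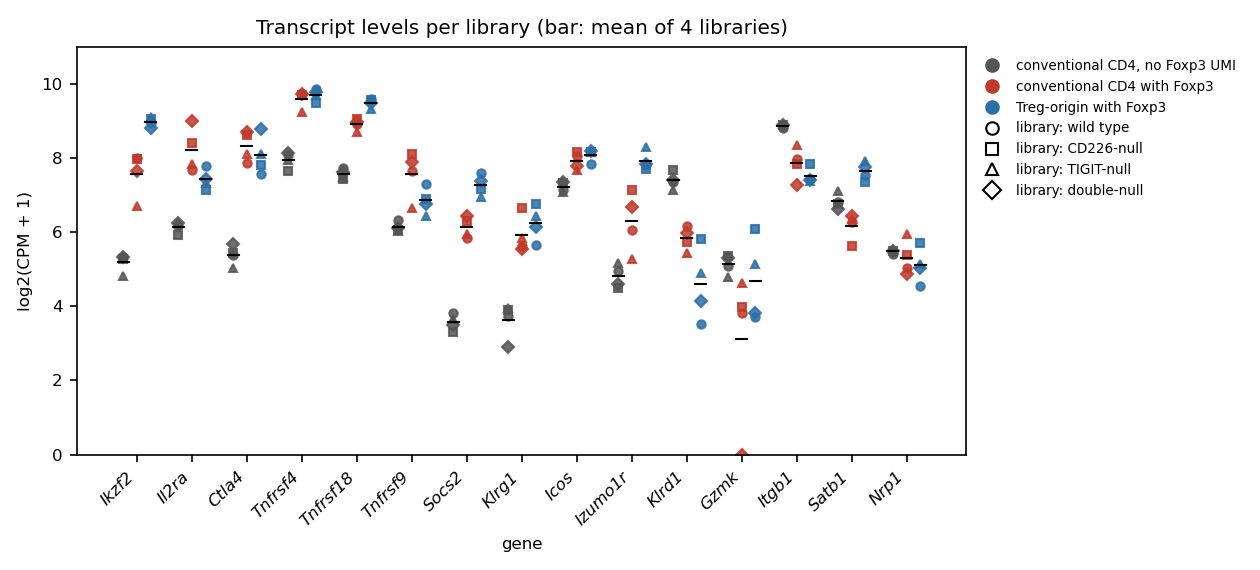
Level of 15 genes as log2(CPM + 1) in each library (symbol shape) for conventional CD4 cells without Foxp3 (grey), conventional CD4 cells with Foxp3 (red) and Treg-origin cells with Foxp3 (blue); bars are means of 4 libraries. Red symbols lie above the grey ones from Ikzf2 to Izumo1r and below them for Klrd1, Gzmk, Itgb1 and Satb1, while those of Nrp1 overlap; Ikzf2, Socs2 and Izumo1r are higher still in the Treg-origin cells.

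Genes of activated, effector-stage Treg cells also differed: 7 of 16 tested were higher in members and 0 lower. After thinning to 2000 UMIs 4 of 17 were called, and with at least 2 Foxp3 UMIs 3 of 17. Klrg1, a lectin-like receptor of terminally differentiated T cells, was measured at 48.6, 100.2, 56.7 and 45.4 CPM against 12.4, 13.9, 14.6 and 6.53 CPM (log2 fold 2.33, SE 0.27, adjusted p = 7.5e-09). It was detected in 27 of 108 members, and its call was lost without the library block. The costimulator Icos, the inhibitory receptor Lag3, the chemokine receptor Cxcr3 and the transcription factor Maf had smaller log2 folds of 0.72, 0.83, 0.73 and 0.52. Granzyme B (Gzmb) stood at 2152, 2988, 1906 and 2695 CPM in members against 1558, 1144, 1226 and 1259 CPM. Its groups did not overlap, but it missed the threshold (log2 fold 0.87, adjusted p = 0.053).

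Interferon-induced genes formed a further group, with 6 of 14 tested higher and 0 lower (median log2 fold 0.53). The guanylate-binding protein gene Gbp2 reached 140.2, 234, 213 and 187 CPM in members against 58.2, 61.6, 68.4 and 59.0 CPM (log2 fold 1.58, SE 0.14). Igtp, another GTPase gene of this class, and Zbp1, a nucleic acid sensor, had log2 folds of 0.80 and 0.58. Isg15 and Gbp4 were called too, but each lost its call in at least 8 alternatives, among them the test with DESeq2. Gbp2 lost its call with at least 2 Foxp3 UMIs, Zbp1 after thinning and Igtp in both settings. The number called ranged from 1 to 6 over the alternatives: it was 1 in each of those settings and 3 without the wild-type or the double-null library. Summed over the whole list the members' level was 4922, 7293, 4766 and 4585 CPM, all above the 3683 to 4129 CPM of the cells without Foxp3 and highest in the CD226-null library.

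Other genes with large folds stood outside these groups. Epcam, an adhesion molecule best known from epithelium, was found in 28 members, at 20.6, 77.9, 14.2 and 34.0 CPM against 6.30 to 6.84 CPM (log2 fold 2.36, SE 0.42). No more than 9.76% of its UMIs in members came from 1 cell. Iigp1, an interferon-induced GTPase gene that was not on the list, had a log2 fold of 2.27, and Crem, a transcription factor of cAMP signalling, one of 1.84. Arl5a and Arl5c, small GTPases of one family, had log2 folds of 1.62 and 1.59, and Neb, which encodes the muscle protein nebulin, one of 1.44. Epcam, Iigp1 and Arl5c were no longer called when at least 2 Foxp3 UMIs were required.

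Among the genes lower in members, the natural killer receptor chain gene Klrd1 (CD94) had the largest fold. It stood at 71.0, 52.0, 42.6 and 62.4 CPM in members and at 164, 204, 139 and 169 CPM in the others, with no overlap, as for 5.19% of all genes tested in this direction (log2 fold -1.53, SE 0.16, adjusted p = 1.7e-10). Itgb1, the beta-1 integrin chain, was measured at 251, 230.1, 326 and 153 CPM against 452, 472, 483 and 474 CPM (log2 fold -0.98, SE 0.11). Cxcr6, a chemokine receptor of effector T cells, differed by -0.63 on the log2 scale. These 3 kept their call in all 18 alternatives, which none of the other 12 lower genes named by the same rule did.

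Those 12 included Gzmk, a granzyme of effector-memory cells, at 13.1, 14.8, 23.6 and 0 CPM against 26.7 to 40.3 CPM (log2 fold -1.38). Tnfsf8 (the ligand of CD30), the adhesion receptor Cd96, the chromatin organiser Satb1, the survival gene Bcl2 and the inhibitory receptor Pdcd1 had log2 folds of -1.51, -0.97, -0.68, -0.64 and -0.63. The rest were Asap1, Evl, Mettl16, Gramd3, Stk26 and Ddx10, with log2 folds from -1.16 to -0.71. The count of lower genes was 15 with DESeq2, 26 without the block, 31 without cells that held a Cd8 UMI, and 20 or 16 without the wild-type or the double-null library. The count of higher genes was at least 84 in those settings.

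Lists of other T cell states held 0 to 2 calls in each direction. Over all genes tested 2.63% were called higher and 0.987% lower. In lists of this size 1 or 2 calls already make a larger share than that, and no list was tested as a set. Of the genes that Foxp3 is known to repress or that mark conventional cells, 9 could be tested; Il7r was higher in members and Satb1 lower, and the cytokine genes Il2, Csf2, Tnf and Il17a were below the filter. For Il7r, the IL-7 receptor chain that Treg cells usually hold low, the values were 110.3, 152, 109 and 108 CPM against 55.5, 89.6, 67.3 and 69.5 CPM (log2 fold 0.78, adjusted p = 0.00027). The Th1 list had 1 higher (Cxcr3) and 1 lower (Cxcr6) of 18, cytotoxicity 1 and 2 of 12, and naive and memory genes 2 and 2 of 11. Of the 21 proliferation genes 0 were higher and 2, Stmn1 and Hmgb2, lower by 0.35 and 0.27 on the log2 scale. The summed level of the proliferation list was 10665, 8069, 9112 and 9295 CPM in members and 10015 to 10883 CPM in the others.

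**Figure D3:**
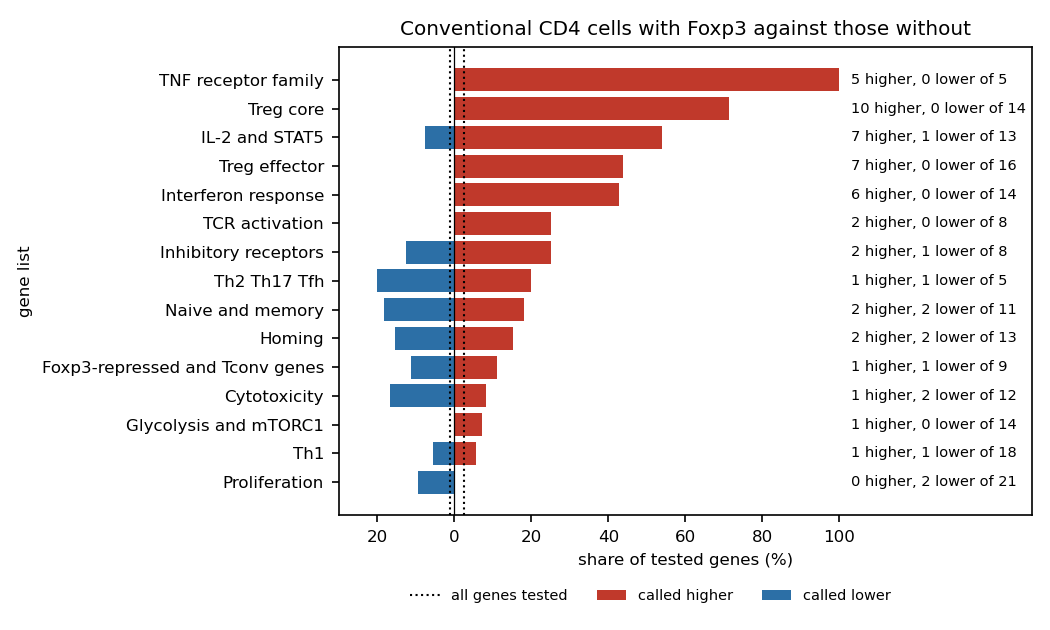
Share of the tested genes of a list called higher (red, to the right) or lower (blue, to the left) in conventional CD4 cells with Foxp3 than in those without, with the counts at the right; dotted lines mark 2.63% and 0.987%, the shares among all genes tested. Of the 15 lists of T cell genes and processes shown, those of TNF receptors, the Treg core and IL-2 have the largest shares called higher, and the proliferation list has none. Lists share genes, and each called TNF receptor gene is also on the Treg core or Treg effector list. Marker lists of other cell types are not drawn.

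Markers of other cell types were mostly below the filter or at 0, while Ighm and Cd74 were called higher in members. Of the 8 B and plasma cell markers Ighm was called higher (86.0, 275, 142 and 204 CPM against 66.8 to 78.9 CPM), while Cd79a, Ms4a1, Pax5 and Jchain were at 0 in all members. The summed B cell list stood at 114, 327, 161 and 216 CPM in members and at 77.8 to 91.1 CPM in the cells without Foxp3. Of the 10 myeloid markers Cd74 was called higher (log2 fold 0.83), with Lyz2 and Csf1r at 0 in members and summed levels of 118 to 167 CPM against 109 to 121 CPM. In this comparison no marker of neutrophils, erythroid cells, NK cells or gamma-delta and NKT cells passed the filter. The part of Ighm- or Cd74-bearing RNA in the differences above was not tested.

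The calls were repeated at matched and at equal depth. The median member held 8610 UMIs and the median cell without Foxp3 7913. Against 20 cells without Foxp3 per member, chosen nearest in total UMIs within the library, 151 genes were higher and 11 of 14 Treg core genes were called. Thinned to 2000 UMIs, 60 genes were higher, of which 49 belonged to the 136, and 11 of 16 Treg core genes were called. With at least 2 Foxp3 UMIs, which leaves 45 members, 49 genes were higher, and 48 of them belonged to the 136. Without the wild-type library 88 genes were higher and without the double-null library 84.

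The members varied among themselves. In thinned cells the mean number of Treg core genes detected, of 25, was 4.55, 6.04, 3.90 and 5.53 in the members of the 4 libraries, 4.96 over all, and 2.24 in conventional CD4 cells without Foxp3. The members of the TIGIT-null library had the lowest value, and every library's members lay above the 2.18 to 2.30 of the cells without Foxp3. Foxp3-positive conventional CD8 cells had 3.87, against 1.72 in those without Foxp3. Conventional cells resolved as neither CD4 nor CD8 had 5.67 with a Foxp3 UMI, more than the members, and 2.06 without.

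Helios-positive and Helios-negative members had similar depth (medians of 8572 and 8652 UMIs) but different levels of several genes. The following are sums over 68 and 40 cells with exact Poisson intervals that cover counting error only, and no test was made, since the cells of a library are not replicates. Tnfrsf4 stood at 920.4 CPM (854 to 990.4) in Helios-positive members and 584 CPM (513 to 662) in the others, Tnfrsf18 at 576 against 315 CPM, Icos at 315 against 137 CPM and Klrg1 at 83.8 against 19.2 CPM. Ctla4, by contrast, was at 281 CPM (245 to 321) in Helios-positive and 343 CPM (290 to 405) in Helios-negative members, where it came from 17 of 40 cells. Both subsets lay above the 31.5 to 50.5 CPM that Ctla4 reached in the cells without Foxp3.

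Members with 2 or more Foxp3 UMIs (45 cells) and those with 1 (63 cells) also differed in these sums. Ctla4 stood at 403 against 231 CPM, Tnfrsf4 at 1079 against 605 CPM, Tnfrsf18 at 584 against 414 CPM and Klrg1 at 111 against 25.9 CPM, while Ikzf2 was at 236 against 206 CPM with overlapping intervals. The members with 1 Foxp3 UMI, at a median of 8556 UMIs against 9767, thus still had Ctla4 and Tnfrsf4 above the highest level of any library's cells without Foxp3. Few members belonged to other small groups of conventional CD4 cells: Cxcr5 was found in 3 of 108, Il2 in 3, Csf2 in 5 and Ccr9 in 8, and the shares among cells without Foxp3 (2.80%, 2.88%, 4.26% and 5.70%) lay within the members' intervals.

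Next, the members were compared with the transferred Treg-origin cells that also had a Foxp3 UMI. Of 5208 genes tested, 94 (1.8%) were higher in the conventional members and 163 (3.13%) lower. The 2 groups differ by more than their history: by donor sex, by CD45 form, by the Treg donors' Foxp3-GFP allele and CD226 and TIGIT genotype, and by depth, with a median of 5119 UMIs in the Treg-origin cells. Sex-linked genes, Cd226 and Tigit were left out of the calls, and the remaining differences between donors cannot be told apart from those between conventional and Treg descent. Treg-origin cells were taken whether or not Cd4 UMIs were found.

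Ctla4, Il2ra, Tnfrsf4 and Klrg1, all higher in members than in other conventional cells, were not called different from the Treg-origin cells. Ctla4 was measured at 232, 393, 274 and 414 CPM in members and 189.8, 225, 277 and 444 CPM in Treg-origin cells, and the groups overlapped (log2 fold 0.22, SE 0.14, adjusted p = 0.46). The log2 folds of Il2ra, Tnfrsf4 and Klrg1 were 0.75 (SE 0.28), -0.13 (SE 0.11) and -0.31 (SE 0.22), with adjusted p of 0.23, 0.61 and 0.53. Missing the threshold does not show that these levels are alike. Summed over the Treg core list, members stood at 3700, 4461, 3168 and 4500 CPM, Treg-origin cells at 4204 to 4476 CPM and the conventional cells without Foxp3 at 1446 to 1604 CPM.

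Other genes of the core list set the 2 origins apart, with 3 of 18 higher in members and 7 lower. Ikzf2 stood at 254, 249, 104 and 199 CPM in members against 491, 533, 549.6 and 451 CPM in Treg-origin cells, with no overlap (log2 fold -1.33, SE 0.16, adjusted p = 1.6e-05), as for 5.38% of all genes tested in this direction. Its relative Ikzf4 stood at 9.35, 18.6, 14.2 and 11.3 CPM against 61.8, 35.8, 36.6 and 33.6 CPM (log2 fold -1.87, SE 0.36). Izumo1r, Socs2, Ecm1, Swap70 and Tnfrsf18 were lower as well, with log2 folds of -1.52, -1.28, -2.14, -1.33 and -0.62. Those higher were Tnfrsf9, Il2rb and Eea1, with log2 folds of 0.70, 0.47 and 1.2; in Tnfrsf9 and Eea1 the groups overlapped. The members' values for Ikzf2 thus lay between conventional cells without Foxp3, at 27.3 to 39.6 CPM, and Treg-origin cells.

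Interferon-induced genes differed in 1 direction: 11 of 14 tested were lower in members and 0 higher. Isg15 was at 136, 223, 89.8 and 96.5 CPM in members and 347, 280.3, 332 and 279.6 CPM in Treg-origin cells (log2 fold -1.22, SE 0.18, adjusted p = 0.0002). Rtp4 and Ifit1 had log2 folds of -1.85 and -2.51. The summed list reached 8118 to 9316 CPM in Treg-origin cells with Foxp3 and 7340 to 9545 CPM in those without, so that it was at a similar level there whether or not Foxp3 was counted. In members it was 4585 to 7293 CPM, above other conventional CD4 cells and below both.

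Further genes lower in members were led by Penk, the enkephalin precursor, at 7.48, 0, 0 and 0 CPM against 45.199, 7.95, 23.6 and 91.3 CPM (log2 fold -3.53, SE 0.53). P2rx7, the ATP-gated channel of T cells, stood at 7.48, 3.71, 18.9 and 17.0 CPM against 60.3, 41.7, 73.3 and 65.2 CPM (log2 fold -2.53). Cyp11a1, an enzyme of steroid synthesis, and the type 2 cytokine gene Il4 had log2 folds of -3.18 and -2.54 with overlapping groups, and both had 28.4 and 34.0 CPM in the members of the double-null library. Gata3, the factor of type 2 and tissue Treg cells, and Gzmb were lower by 0.95 and 0.83 on the log2 scale (adjusted p = 2.2e-05 and 0.00019). Satb1 and Il7r, too, were lower in members than in Treg-origin cells, by 1.49 and 0.85.

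Higher in members than in Treg-origin cells were Nrgn, a calmodulin-binding protein, at 65.4, 29.7, 33.1 and 85.1 CPM against 4.52, 9.94, 13.1 and 11.2 CPM (log2 fold 2.52, SE 0.38), with no overlap, as for 5.15% of all genes tested in this direction, and the tetraspanin gene Cd9, at 44.9, 44.5, 61.5 and 73.8 CPM against 5.23 to 13.9 CPM (log2 fold 2.18). The class I gene H2-Q10, the signalling receptor Slamf7 and Plek had log2 folds of 2.40, 1.5 and 1.64. H2-Q10 belongs to a family of near-identical genes, between which reads can be split. Of the Th1 list 3 of 16 were higher: the lineage factor Tbx21, Il18r1 and Nkg7, with log2 folds of 0.97, 0.86 and 0.69. Mki67, carried by dividing cells, stood at 555, 431, 553 and 477 CPM against 357, 237, 424 and 386 CPM (log2 fold 0.52). It was called with 2 other genes of the 21 on the proliferation list. After thinning to equal depth the log2 fold of Mki67 was 0.50, but its call was lost (edgeR adjusted p = 0.43). In this comparison each of the 15 higher genes named by rule lost its call in at least 1 of 13 alternatives, and 5 of the 15 lower genes lost it in none; Tbx21 and Il18r1 lost it in 6.

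**Figure D4:**
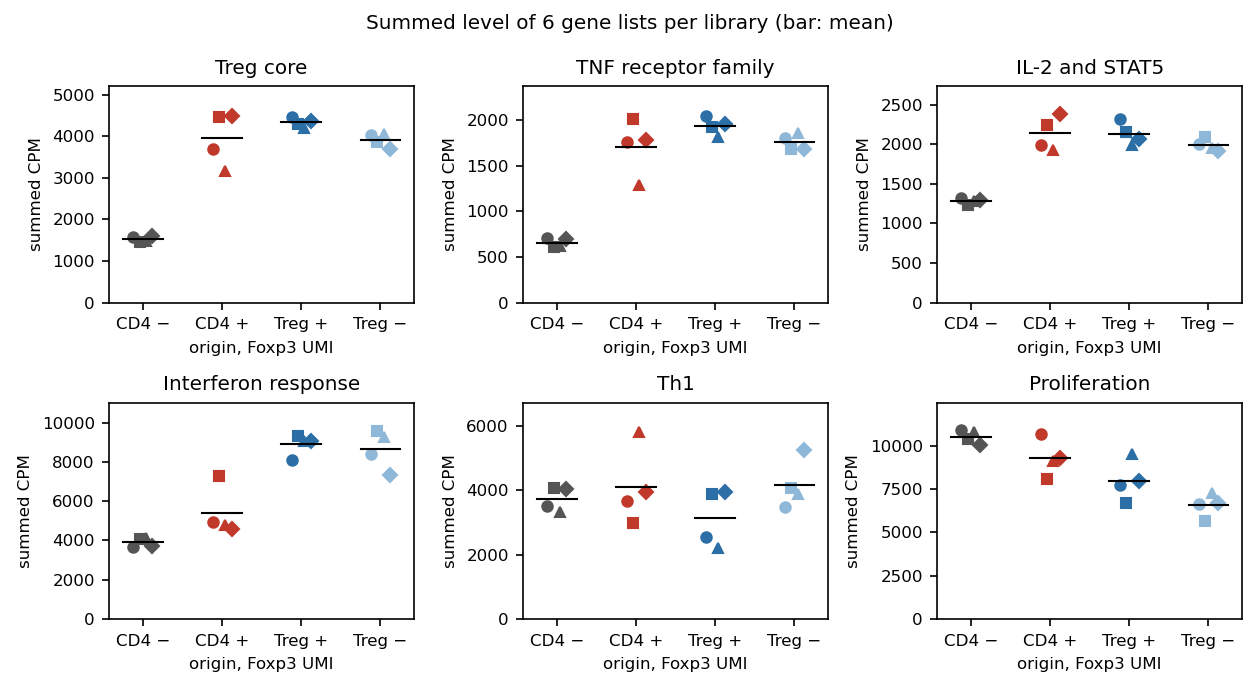
Summed level in CPM of 6 gene lists in each library (symbol shape as for the gene levels: circle wild-type, square CD226-null, triangle TIGIT-null, diamond double-null) in conventional CD4 cells without (CD4 −) and with (CD4 +) Foxp3 and Treg-origin cells with (Treg +) and without (Treg −) Foxp3; bars are means and axes start at 0. For the Treg core, TNF receptor and IL-2 lists the members' means lie nearer to the Treg-origin cells than to conventional cells without Foxp3. Some libraries' members lie below the Treg-origin cells, as for TNF receptors with 1286 to 2012 CPM against 1819 to 2051 CPM with Foxp3. For the interferon and proliferation lists the members' means lie between those of conventional cells without and Treg-origin cells with Foxp3.

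Finally, the difference that goes with a Foxp3 UMI was set beside the same difference in Treg-origin cells, where Foxp3 was counted in 346 of 1537 cells (22.5%). In those cells 19 of 5173 genes tested (0.367%) were higher with Foxp3 and 10 (0.193%) lower. The lower genes included 4 of 5 tested neutrophil markers (S100a8, Ngp, Camp and Lcn2) and the plasma cell gene Jchain. The tested neutrophil markers had a median log2 fold of -7.59, so their RNA lay mainly in the sums without Foxp3. Those sums also enter the contrast between origins, where these markers had a median log2 difference of 4.70 with 0 called. The part of such RNA in both comparisons was not tested. Ikzf2 stood at 491, 533, 549.6 and 451 CPM with Foxp3 and 470.1, 494, 499 and 432 CPM without (log2 fold 0.07, SE 0.07, adjusted p = 0.94). The log2 folds of Ctla4, Il2ra, Socs2 and Klrg1 there were 0.48, 0.35, 0.30 and -0.13, and none passed the threshold. Of the 136 genes higher with Foxp3 in conventional CD4 cells, 134 were tested in Treg-origin cells. Of those, 80 had a positive log2 fold and 0 were called. The Treg cells had been sorted as Foxp3-GFP+ before transfer. At a median of 4432 UMIs a Foxp3 count of 0 does not show that a Treg-origin cell lacked Foxp3. In thinned cells the mean number of Treg core genes was 4.99 in Treg-origin cells with a Foxp3 UMI and 4.80 in those without. In conventional CD4 cells it was 4.96 and 2.24. The part of undetected Foxp3 in the difference between origins was not tested.

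The test of the difference itself, a contrast of both folds over 16 sums, called 78 of 5197 genes (1.5%) as more positive with Foxp3 in conventional CD4 cells than in Treg-origin cells and 22 (0.423%) as more negative. Of the 136 genes, 68 were among the 78. The contrast holds the same conventional sums that gave the 136. This overlap and the list counts below are therefore no separate support for them. Ctla4, Ikzf2 and Socs2 differed between origins by 2.46 (SE 0.26), 2.44 (SE 0.24) and 2.2 (SE 0.24) on the log2 scale, with adjusted p of 0.00014, 0.00011 and 1e-07. Ikzf4, which was below the filter in the first comparison, differed by 2.25 (SE 0.49). Of the Treg core list 10 of 17 tested were called in this direction and 0 in the other. Of the TNF receptor list 4 of 5 were called, of which Tnfrsf4, Tnfrsf9 and Tnfrsf18 are also on the core list.

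Proliferation genes were on the other side of this contrast, with 6 of 21 called more negative in conventional cells and 0 more positive. Ccnb1, cyclin B1, stood at 165, 122, 142 and 153 CPM in members and 152 to 172 CPM in conventional CD4 cells without Foxp3, but at 113, 123, 175 and 166 CPM in Treg-origin cells with Foxp3 against 89.5, 60.3, 97.0 and 79.99 CPM without. The difference between origins was -0.94 (SE 0.18, adjusted p = 0.001). In the Treg-origin cells Ccnb1, Cenpf, Mki67 and Birc5 were higher with Foxp3, by 0.78, 0.77, 0.44 and 0.44 on the log2 scale. Treg-origin cells with Foxp3 also had more UMIs than those without, with medians of 5119 against 4432. With all cells thinned to 2000 UMIs 3 genes were higher there and none of these 4 was called, with log2 folds of 0.52, 0.71, 0.33 and 0.45 for Ccnb1, Cenpf, Mki67 and Birc5. The difference between origins was then -1.33 for Ccnb1, -1.30 for Cenpf and -0.62 for Birc5, with adjusted p of 0.053, 0.017 and 0.10. Cenpf thus kept its call there, and the others did not. Without the library block no gene was called within Treg origin.

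**Figure D5:**
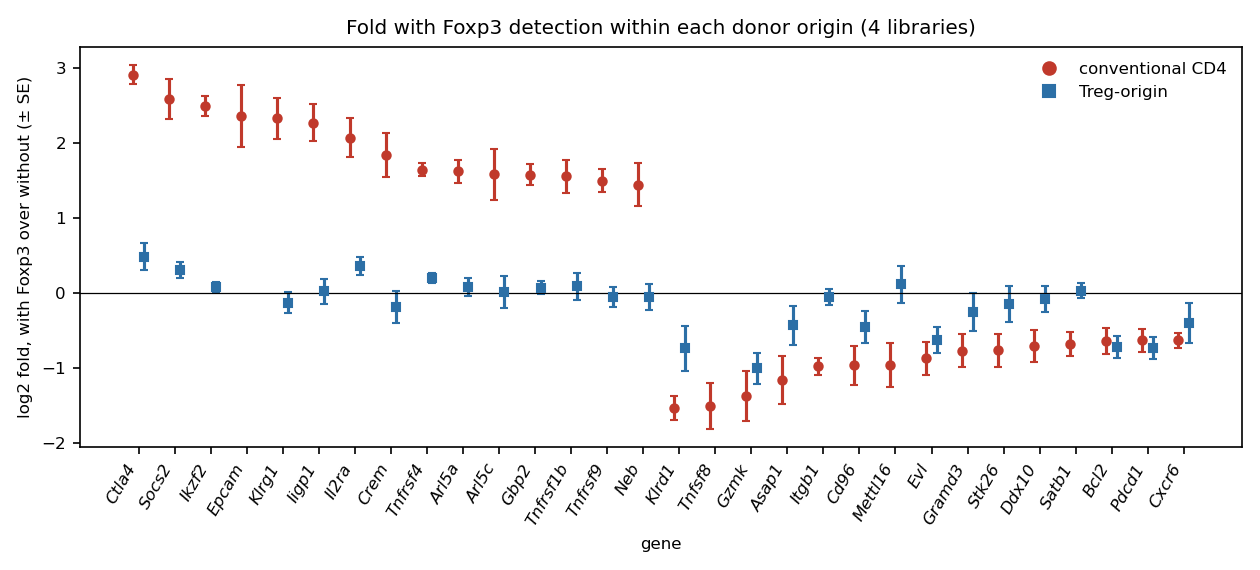
Log2 fold (± SE, 4 libraries) between cells with and without a Foxp3 UMI in conventional CD4 cells (red circles) and Treg-origin cells (blue squares), for the 30 genes named by rule in conventional CD4 cells; genes not tested in Treg-origin cells have no square. For Ctla4, Socs2 and Ikzf2 the red points lie above 2 and the blue ones at 0.48, 0.30 and 0.07, while Bcl2 and Pdcd1 are lower by similar amounts in both.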

How the data were processed

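The authors deposited raw UMI counts of genes and of CD45.1 and CD45.2 antibody tags for each barcode. Per the submitters' processing notes, Cell Ranger 3.1.0 and mm10 were used. The libraries held 84061005 to 87743463 gene UMIs. Of 39421 barcodes 36140 were kept; 172 occur in more than 1 library, none of them a member's. No doublet caller was used. The members and gene lists were chosen with earlier results of these data known.

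UMIs were summed per library and class: 534911, 269438, 211488 and 176233 in members. Genes with a mean of 20 CPM over the sums were tested with edgeR 4.0.16 (TMM, robust quasi-likelihood, library as block), in R 4.3.3. The library is the block since both classes of a library come from the same pool, sort and run; the labels give no other replicate numbers. With this block the p-values rest on how the difference between classes varies over 4 libraries, each of another Treg genotype. Foxp3, Cd4, Cd8a, Cd8b1 and sex-linked genes entered no call. On simulated counts with a 2-fold change, 82% of changed genes were found for the first comparison (5169 genes), and 44% with a 1.5-fold change. At 2-fold the shares were 72% against Treg-origin cells, 70% between origins and 90% within Treg origin. The simulation held no differences between libraries and took each gene's spread from a trend over genes, so the shares for these data can be lower. The unadjusted p was under 0.05 for 752, 910, 606 and 373 genes in the comparison without Foxp3, with Treg-origin cells, between origins and within Treg origin.

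Named genes are up to 15 per direction with the largest fold among called genes with 1 direction in all 4 libraries and a UMI in at least 10 cells of the higher class, and members of the lists. Intervals are exact (Clopper-Pearson or Poisson) at 95% and cover counting error only. Alternatives were DESeq2 1.42.0 and its size factors, other filters, no block, each library left out, thinning to 2000 UMIs, stricter cell and ratio limits, shared barcodes left out and, for the first comparison and the shares, other choices of cells.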

Additional observations from a re-analysis of the deposited data

Results flagged for a closer look

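For 30 genes the fold between cells with and without a Foxp3 UMI differed between conventional CD4 and Treg-origin cells, by an edgeR quasi-likelihood test of the difference itself. These are the genes with the largest differences among those called. A Foxp3 count of 0 does not show that a Treg-origin cell, sorted as Foxp3-GFP+ before transfer, lacked Foxp3. Positive log2 differences, meaning a more positive fold in conventional CD4 cells, were found for Klrg1 (2.50), Ctla4 (2.46), Ikzf2 (2.44), Ikzf4 (2.25), Iigp1 (2.24), Socs2 (2.2), Crem (2.04), Matk (1.84), Il2ra (1.73), Arl5a (1.58), Tnfrsf9 (1.58), Ube2l6 (1.54), P2ry10 (1.53), Arl5c (1.52) and Tnfrsf1b (1.5). Of these 15 genes, 5 kept their call in every alternative. Negative log2 differences were found for Cenpf (-1.10), Itgb1 (-0.94), Ccnb1 (-0.94), Tuba1c (-0.80), Cdca3 (-0.76), Cdkn3 (-0.75), Satb1 (-0.72), Ccna2 (-0.70), Birc5 (-0.59), Cdca8 (-0.56), Pop5 (-0.55), Tubb4b (-0.55), Cenpa (-0.53), Stmn1 (-0.48) and Tuba1b (-0.46). Of these 15 genes, 0 kept it in every alternative.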

How the results depend on the processing

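The number of genes higher in members than in conventional CD4 cells without Foxp3 was 136 as reported, 60 after thinning, 49 with at least 2 Foxp3 UMIs and 84 to 147 with 1 library left out (88 without the wild-type and 84 without the double-null library). These and the following numbers are all calls in a setting, whether or not the genes were called before. The 51 lower genes became 15 with DESeq2, 149 without a filter, 26 without the replicate block, 16 with at least 2 Foxp3 UMIs, 31 without cells holding a Cd8 UMI and 16 to 56 with 1 library left out (20 without the wild-type, 16 without the double-null library). Against Treg-origin cells the 94 higher genes became 21 with DESeq2, 21 after thinning, 48 at antibody ratios above 3 or below -1.5, and 33 to 104 with 1 library left out (44, 56 and 33 without the wild-type, TIGIT-null and double-null library). The 163 lower genes became 61, 39 and 95 in those 3 settings and 92 to 165 (94 without the wild-type, 92 without the double-null library). Between origins, the 78 more positive genes became 51 without the replicate block and 40 to 75 with 1 library left out (40 without the CD226-null library). The 22 more negative became 104 without a filter, 6 without the block, 37 after thinning, 8 at the stricter ratios and 5 to 32 (5, 11 and 12 without the CD226-null, TIGIT-null and double-null library). Within Treg origin, the 19 higher genes became 3 with DESeq2, 0 without the block, 3 after thinning, 7 with stricter cell limits, 2 at the stricter ratios and 7 to 36 (36, 7 and 12 without the wild-type, TIGIT-null and double-null library). The 10 lower became 0 with DESeq2, 19 at a filter of 5 CPM, 37 without a filter, 0 without the block, 4 at the stricter ratios and 4 to 22. The share of conventional CD4 cells with Foxp3 (0.918% over all libraries) became 0.621%, 0.356%, 0.358% and 0.214% per library and 0.385% over all after thinning. With at least 2 UMIs it was 0.618%, 0.291%, 0.355% and 0.284%, and 0.383% over all. Signs turned in 5 cases: Ctla4 against Treg-origin cells (-0.19 at the stricter ratios), Tnfrsf4 there (0.22 after thinning), Arl5c between origins (-0.23 after thinning), and Ikzf2 within Treg origin (-0.015 after thinning, -0.079 at the stricter ratios). Arl5c was called between origins before thinning and the other 4 were not called. The cause of these changes was not tested. The members are 108 cells with 176233 to 534911 summed UMIs per library, which limits what could be called for small differences and low genes.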
